A study of Mus musculus with 12 samples.

Results

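The 81 genes of the cytosolic ribosomal proteins were followed across 4 genotype labels in mouse blood progenitors. They were taken from a table of 55450 genes by symbol. The rule kept Rpl and Rps symbols that end in a number, with at most a letter a, l or x after it, together with Rplp0, Rplp1, Rplp2 and Rpsa, and it left out copies whose symbol ends in ps and a number. By symbol 51 belong to the large subunit (60S) and 30 to the small subunit (40S). The annotation lists 79 of them as protein coding and 2, Rpl6l and Rpl32l, as processed pseudogenes. Rps3a1, Fau and Rack1, among others, also encode ribosomal proteins but lie outside the rule.

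The cells were donor cells from the bone marrow of mice that had received competitive transplants, sorted as negative for lineage markers and positive for the receptor Kit (LK cells, which are stem and progenitor cells of the blood). Total RNA was depleted of ribosomal RNA and sequenced in 12 libraries, 3 for each donor genotype. The labels were WT, Tet2 KO (Tet2KO below), Id1 KO (Id1KO) and Tet2 KO + Id1KO (dKO). Tet2 encodes an enzyme that oxidizes 5-methylcytosine, and Id1 encodes an inhibitor of helix-loop-helix transcription factors. The recipients' own genotype, the way the alleles were made, the age of the mice and the number pooled are not given in the sources used here. The series title names the question, whether loss of Id1 alters clonal hematopoiesis in mice without Tet2 function.

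Ribosomal proteins are made in nearly equal numbers, since each mature ribosome holds 1 copy of most of them, and they are assembled with ribosomal RNA in the nucleolus. Their mRNAs are short, very abundant and start with a terminal oligopyrimidine (TOP) tract, through which the kinase mTOR and the protein Larp1 set their translation and stability. Blood progenitors are known to be sensitive to the dose of single ribosomal proteins: inherited loss of 1 allele causes Diamond-Blackfan anemia, and loss of RPS14 contributes to the anemia of 5q- syndrome.

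The levels of Tet2 and Id1 did not bear out the null labels. Tet2 stood at 97.6 to 102 CPM (counts scaled to a common library size with TMM factors) in libraries labelled WT, 127 to 132 in Tet2KO, 90.3 to 93.3 in Id1KO and 115 to 121 in dKO. Id1 stood at 1.24 to 1.76 CPM in WT and 3.35 to 4.35 in the other 9 libraries. Counts summed over a gene can hide the loss of a single exon, but whether they do so here was not tested. Id1 has 1160 exonic bases, and its log2 fold change in Id1KO against WT was 1.43. Every genotype name below is the label of a library. Each library held between 15706407 and 19959183 estimated counts. The 3 libraries of a genotype share 1 sample number in their titles, so they may be repeats of 1 cell sample. The p-values then measure only the spread between these libraries, which may be technical. With the 3 libraries of each genotype summed to 1 and an additive model of both labels, 0 ribosomal protein genes were called in any of the 5 pairwise comparisons. That fit rests on 4 summed samples, which leave little to measure a spread from, so it cannot decide whether the genes differ. Of the 81 genes, 77 passed the filter on low counts and were tested among 14346 genes. A gene was called when its edgeR adjusted p was under 0.05. The gate gene Kit stood at means of 338, 365, 315 and 320 CPM in WT, Tet2KO, Id1KO and dKO, and Cd34 at 344, 366, 282 and 293. Ly6a, listed with them, had only 7 to 22 counts and was not called in any comparison. Its means were 0.626, 0.945, 0.738 and 1.09 CPM in the same order. Summed CPM of 9 neutrophil markers ran from 14073 to 14129 in WT, 15543 to 15783 in Tet2KO, 11823 to 12800 in Id1KO and 11637 to 12828 in dKO. The 7 monocyte and dendritic markers summed to 1947 to 2018, 2234 to 2286, 1768 to 1780 and 2178 to 2218 CPM in the same order, and 7 megakaryocyte markers to 158 to 164, 163 to 173, 224 to 237 and 163 to 180. In that order 6 stem cell markers summed to 84.8 to 90.1, 89.9 to 97.8, 90.1 to 93 and 76.8 to 79.6, 9 lymphoid markers to 55.6 to 62, 68.4 to 73.2, 43.1 to 46.7 and 43.6 to 49, and 7 mast cell and basophil markers to 228 to 235, 228, 238 to 246 and 206 to 209. The T cell genes Cd3e and Cd3d had between 0 and 4 counts. In bulk RNA, fewer cells of a type and less RNA per cell cannot be told apart.

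Apart from Rpl6l, the 76 other tested genes were among the abundant transcripts of these cells. Their mean levels ran from 343 CPM for Rpl35 to 2807 CPM for Rpsa, and no library had fewer than 5366 counts of any of them. Divided by exonic length, the highest levels were those of Rplp1 at 2712 CPM per kb, Rps29 at 1589, Rplp0 at 1525, Rpl23a at 1362 and Rps15 at 1235. Rplp1 and Rplp0 form part of the stalk that recruits elongation factors, and Rps29 is a zinc-binding protein of the 40S head. The order depended on the length used. Per kb of coding sequence Rpl41, the shortest member with 138 coding nucleotides, was first at 7346 CPM per kb, followed by Rps29 at 6554, Rplp1 at 3957, Rps12 at 3763 and Rpl39 at 3591.

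Paralogs known from other tissues were nearly silent. Rpl10l, a testis paralog of Rpl10, had no count in any of the 12 libraries, which allows up to 3 counts per library. Rpl39l, another testis paralog, had 0 to 3 counts and Rpl3l, the striated muscle paralog of Rpl3, had 1 to 6. Their partners were at ordinary levels: in libraries labelled WT, Rpl10 was at 1486 ± 39.9 CPM (SD, n = 3), Rpl39 at 589 ± 14.7 and Rpl3 at 2306 ± 52.7. The processed pseudogene Rpl32l had 1 to 8 counts, and these 4 genes were not tested. Rpl6l, the other pseudogene, was tested at 26 to 59 counts. It was not called in any comparison of the main fit, which used TMM scaling and all 12 libraries.

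The start sites show how much of this family carries a pyrimidine run near the annotated start. RefSeq promoter tables (GRCm38.p6) held a start site for 59 of the 79 coding members. A run was defined as a C followed by at least 7 further bases that are each C or T, within 25 bases on either side of the start and on the gene's strand only. It was found for 31 of the 59 (52.5%) and for 17.6% of 26965 other genes. Counted by start site, the shares were 45.7% of 70 and 15.4% of 32780. The windows below hold 30 bases each, 5′ to 3′ on the gene's strand, with the run in capitals, for 4 genes among the most lowered in the comparisons below and 2 that were not called in any pairwise comparison. They lie at chr3:130730333-130730362 (Rpl34, minus strand), chr3:90213629-90213658 (Rps27, minus), chr10:23787180-23787209 (Rps12, minus), chr10:128626481-128626510 (Rps26, minus), chr2:26910787-26910816 (Rpl7a, plus) and chr9:64173362-64173391 (Rpl4, plus).
Rpl34: ctcacccgCCCCTTCCTTTTCCTCTTCCgg
Rps27: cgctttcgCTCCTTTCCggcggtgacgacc
Rps12: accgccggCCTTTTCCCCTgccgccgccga
Rps26: cgccggatCCTCTTTCgagtcttggctcca
Rpl7a: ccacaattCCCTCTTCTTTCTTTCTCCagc
Rpl4: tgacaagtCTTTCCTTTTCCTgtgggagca
Runs of 19 and 13 bases thus stood near the starts of Rpl7a and Rpl4, which were not called, and runs of 8 to 20 bases at the 4 lowered genes. Relative to the annotated first base the runs began at -17 (Rpl34), -2 (Rps27), 9 (Rps12), 5 (Rps26), -12 (Rpl7a) and -17 (Rpl4). The run of Rpl4 thus ended before the start, and those of Rps12 and Rps26 began after it. RefSeq has another start of Rpl34, with a run of 8 bases in the window at chr3:130730390-130730419. In dKO against WT, where 8.97% of all genes tested fell, 21 of 30 tested members with a run and 22 of 26 without one fell, with median log2 fold changes of -0.11 and -0.13. A match describes the letters of the window and is not evidence of a TOP tract in use.

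Together the 81 genes took a smaller share of the reads in libraries labelled dKO than in any other library. The share was 8.04, 8.33 and 8.2% of all counts in the WT libraries, 8.21, 8.08 and 8.13% in Tet2KO, 8.29, 8.31 and 8.28% in Id1KO and 7.97, 7.78 and 7.96% in dKO. The dKO libraries thus lay below the other 9, which overlapped among WT and Tet2KO. Mitochondrially encoded and small structural RNA genes moved as well: they took 10.5 to 10.9% of counts in WT and 7.4 to 8.34% in the other labels. Of the counts that remain without them, the ribosomal protein genes took 9.17 ± 0.144% (SD, n = 3) in the WT libraries, 8.82 ± 0.071% in those labelled Tet2KO, 9.03 ± 0.0354% in Id1KO and 8.57 ± 0.149% in dKO. On that base Tet2KO also lay below WT without overlap, at 8.76 to 8.9% against 9.02 to 9.31%.

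**Figure D1:**
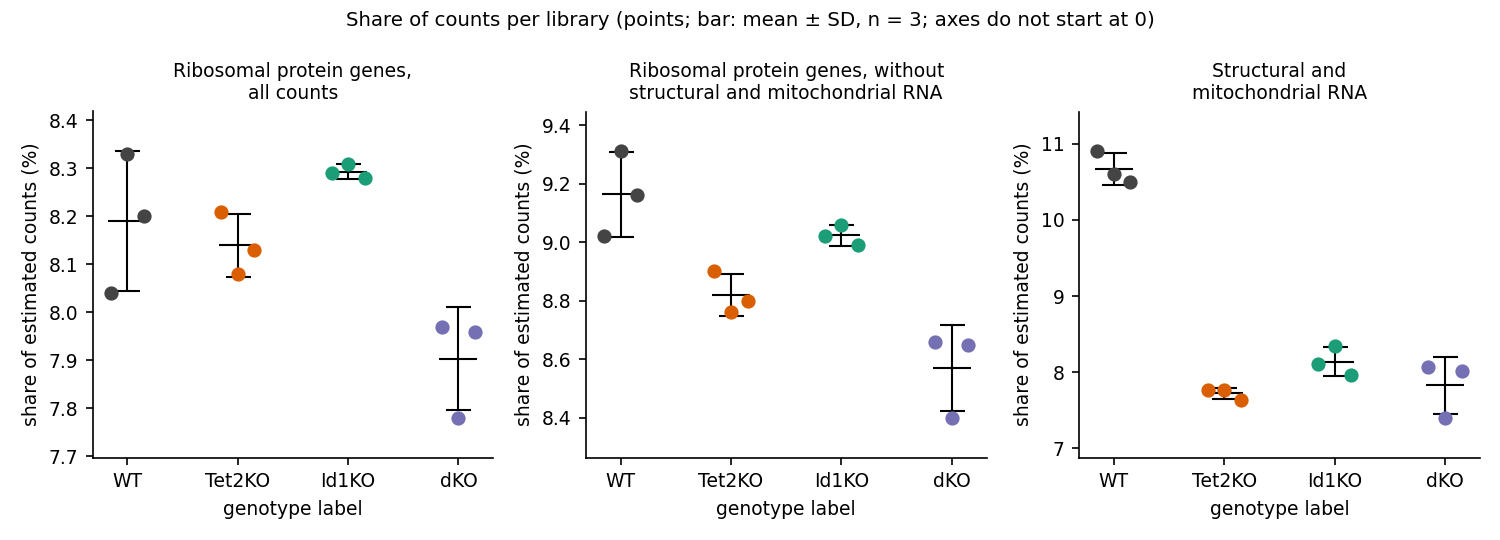
Share of estimated counts (%) per library for the ribosomal protein genes out of all counts (left) and out of counts without mitochondrial and small structural RNA (middle), and for those RNAs themselves (right), by genotype label. Points are libraries and bars give the mean ± SD (n = 3). The dKO libraries lie lowest in the left and middle panels, at 7.78 to 7.97% and 8.4 to 8.66%, and the WT libraries lie highest in the right panel, at 10.5 to 10.9%.

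In libraries labelled Tet2KO the family was slightly lower than in WT. Of 77 tested genes 33 fell and 0 rose, 18 of 47 in the large and 15 of 30 in the small subunit. Among all 14346 genes tested, 16.2% fell and 16.6% rose. The median log2 fold change was -0.07, or -4.71%, against 0.00 for all genes, and single members other than Rpl6l ran from -0.15 to 0.01. One member, Rpl6l, was higher at an unadjusted p under 0.05, and DESeq2 called 35 lower and 0 higher.

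Rps21, Rpl34 and Rpl27 had the lowest fold changes of this comparison. Rps21 is a small protein of the 40S subunit that takes part in 18S rRNA maturation (chr2:180257377-180258445). It was at 481, 491 and 456 CPM in WT and at 453, 409 and 423 in Tet2KO. All 3 Tet2KO libraries were below the 3 WT libraries, and the log2 fold change was -0.15 ± 0.0386 (SE, edgeR adjusted p = 0.00463). Rpl34, a large-subunit protein (chr3:130726831-130730398), was at 499, 514 and 508 CPM in WT and 467, 453 and 457 in Tet2KO. Its groups were also apart, with a log2 fold change of -0.14 ± 0.0247 and the smallest adjusted p of the 3 genes (edgeR, 0.000144). Rpl27 (chr11:101442298-101445529) was at 438, 469 and 429 CPM against 426, 382 and 407, with a log2 fold change of -0.14 ± 0.0361 (edgeR adjusted p = 0.00584). Its Tet2KO values also lay below all WT values, but it was not called without WT replicate 2 (adjusted p = 0.0608) or without Tet2KO replicate 2 (0.0676). Among the smallest called differences were those of Rps26 and Rpl3, each at -0.07. Rpl3 and Rps26 were each no longer called in 9 of the 12 fits that left out 1 library, with adjusted p up to 0.165 without WT replicate 3 and 0.147 without WT replicate 1.

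Most of these calls were lost under 1 of the 5 other scalings, where the median of all genes moved as well. RLE, upper-quartile, TMM without mitochondrial and small structural RNA, and TMM without the family and its copies gave 33, 32, 36 and 35 lower members, each with a median of -0.07. With library totals in place of TMM, a choice added after the data were seen, 1 member remained lower in Tet2KO against WT (Rpl34, -0.09) and 2 were higher (Rps24, 0.07, and Rpl6l, 0.60), while the median of the family was -0.01 and that of all genes 0.05. Single libraries mattered too: 9 members were called without Tet2KO replicate 2 (8 lower and 1 higher), 11 without WT replicate 2, 13 without Tet2KO replicate 3 and 19 without WT replicate 3. Erythroid markers moved with this comparison: 14 of 15 fell, and their summed level was 970 to 981 CPM in Tet2KO, 1616 to 1663 in WT, 1803 to 1837 in Id1KO and 1625 to 1644 in dKO, with none at 0. Their part in the result was not tested.

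Between libraries labelled Id1KO and WT few members were called. Only 3 of 77 tested genes fell and 0 rose, where 7.77% of all genes tested fell and 7.26% rose. The median was -0.03, or -2.11%, against -0.01 for all genes. With scaling by library totals it was 0.02, against 0.04 for all genes. DESeq2 called 4 lower and 0 higher, and 17 members had an unadjusted edgeR p under 0.05, none of them higher. The 3 genes belong to the small subunit. Rps16, whose tail reaches toward the P-site tRNA (chr7:28350652-28353155), was at 808, 705 and 728 CPM in WT and 629, 629 and 710 in Id1KO. The highest Id1KO library thus lay above the lowest WT library, and the log2 fold change was -0.19 ± 0.0457 (SE, edgeR adjusted p = 0.00804). Rps12, a protein of the 40S beak (chr10:23785183-23787275), was at 1775, 1867 and 1751 CPM against 1645, 1647 and 1692, a log2 fold change of -0.11 ± 0.0313 (edgeR adjusted p = 0.0173). Rps29 (chr12:69157722-69159186) was at 1194, 1177 and 1157 CPM against 1099, 1129 and 1097, a log2 fold change of -0.09 ± 0.0261 (edgeR adjusted p = 0.0313). For Rps12 and Rps29 the groups did not overlap. With library totals Rps16 alone was called (edgeR adjusted p = 0.0456). The count was 0 without Id1KO replicate 1, 1 without WT replicate 1, 1 without WT replicate 2 and 8 without dKO replicate 2. Without Id1KO replicate 1 the edgeR adjusted p were 0.0596 for Rps16, 0.079 for Rps12 and 0.128 for Rps29. Erythroid markers summed to 1616 to 1663 CPM in WT and 1803 to 1837 in Id1KO, with 2 of 15 higher and 0 lower, and their part was not tested.

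The largest difference of the family lay between dKO and WT. Of 77 tested genes 57 fell and 0 rose, 35 of 47 in the large and 22 of 30 in the small subunit, where 8.97% of all genes tested fell and 10.2% rose. The median log2 fold change was -0.12, or -7.88%, against 0.00 for all genes, and apart from Rpl6l members ran from -0.24 to 0.00. No member was higher at an unadjusted p under 0.05, and DESeq2 called 56 lower and 0 higher. With library totals 30 fell, 0 rose and the median was -0.06, against 0.05 for all genes. Of 15 erythroid markers 7 rose and 1 fell in this comparison, with sums of 1616 to 1663 CPM in WT and 1625 to 1644 in dKO. Of 6 stem cell markers 3 fell and 0 rose, and of 7 mast cell and basophil markers 3 fell and 1 rose, with dKO sums below those of all other libraries. Their part in the result was not tested.

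Rpl39, Rps21 and Rps29, which encode some of the smallest ribosomal proteins, were lowered most. Rpl39 lines the tunnel through which the new peptide leaves the ribosome (chrX:37082520-37085402). It was at 580, 606 and 582 CPM in WT, 549, 538 and 555 in Tet2KO, 568, 554 and 567 in Id1KO and 486, 504 and 505 in dKO. All 3 dKO libraries were below the other 9, and WT was above all of them. In dKO against WT the log2 fold change was -0.24 ± 0.0271 (SE), or -15.4%, with an edgeR adjusted p of 2.00e-06, and it was -0.19 with library totals. Rps21 was at 424, 394 and 402 CPM in dKO against the WT values above, a log2 fold change of -0.23 ± 0.0387 (edgeR adjusted p = 0.000254). Rps29 was at 1025, 977 and 1018 CPM in dKO and 1129, 1108 and 1103 in Tet2KO, below its WT values in every library. Its log2 fold change in dKO against WT was -0.22 ± 0.0262 (edgeR adjusted p = 3.31e-06). Rps27, Rps13 and Rps12 followed at -0.19, -0.18 and -0.18.

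The smallest of the called differences in dKO against WT were those of Rps24, Rpl35 and Rpl10a, each at -0.09. Rps24 was not called without WT replicate 2 (edgeR adjusted p = 0.0949). As a sum with copies, Rpl10a stood at -0.07 and was not called (edgeR adjusted p = 0.0586). Besides Rpl6l, 19 tested members were not called. Rps14, the gene of 5q- syndrome, was at 1006, 1066 and 1081 CPM in WT and 1073, 999 and 1073 in dKO, and its groups overlapped (log2 fold change 0.00 ± 0.0342, SE). Rps2 was at 2229 ± 94.5 CPM (SD, n = 3) in WT and 2204 ± 66.2 in dKO, with a log2 fold change of -0.02 ± 0.0298 (SE). Rpl4, which reaches into the exit tunnel, was at 2442 ± 51.2 and 2357 ± 13.4 CPM, with -0.05 ± 0.0247, and Rpsa, known as the laminin receptor precursor, at 2861 ± 98.1 and 2755 ± 106, with -0.05 ± 0.0301. A p above the threshold does not show that these genes were equal.

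**Figure D2:**
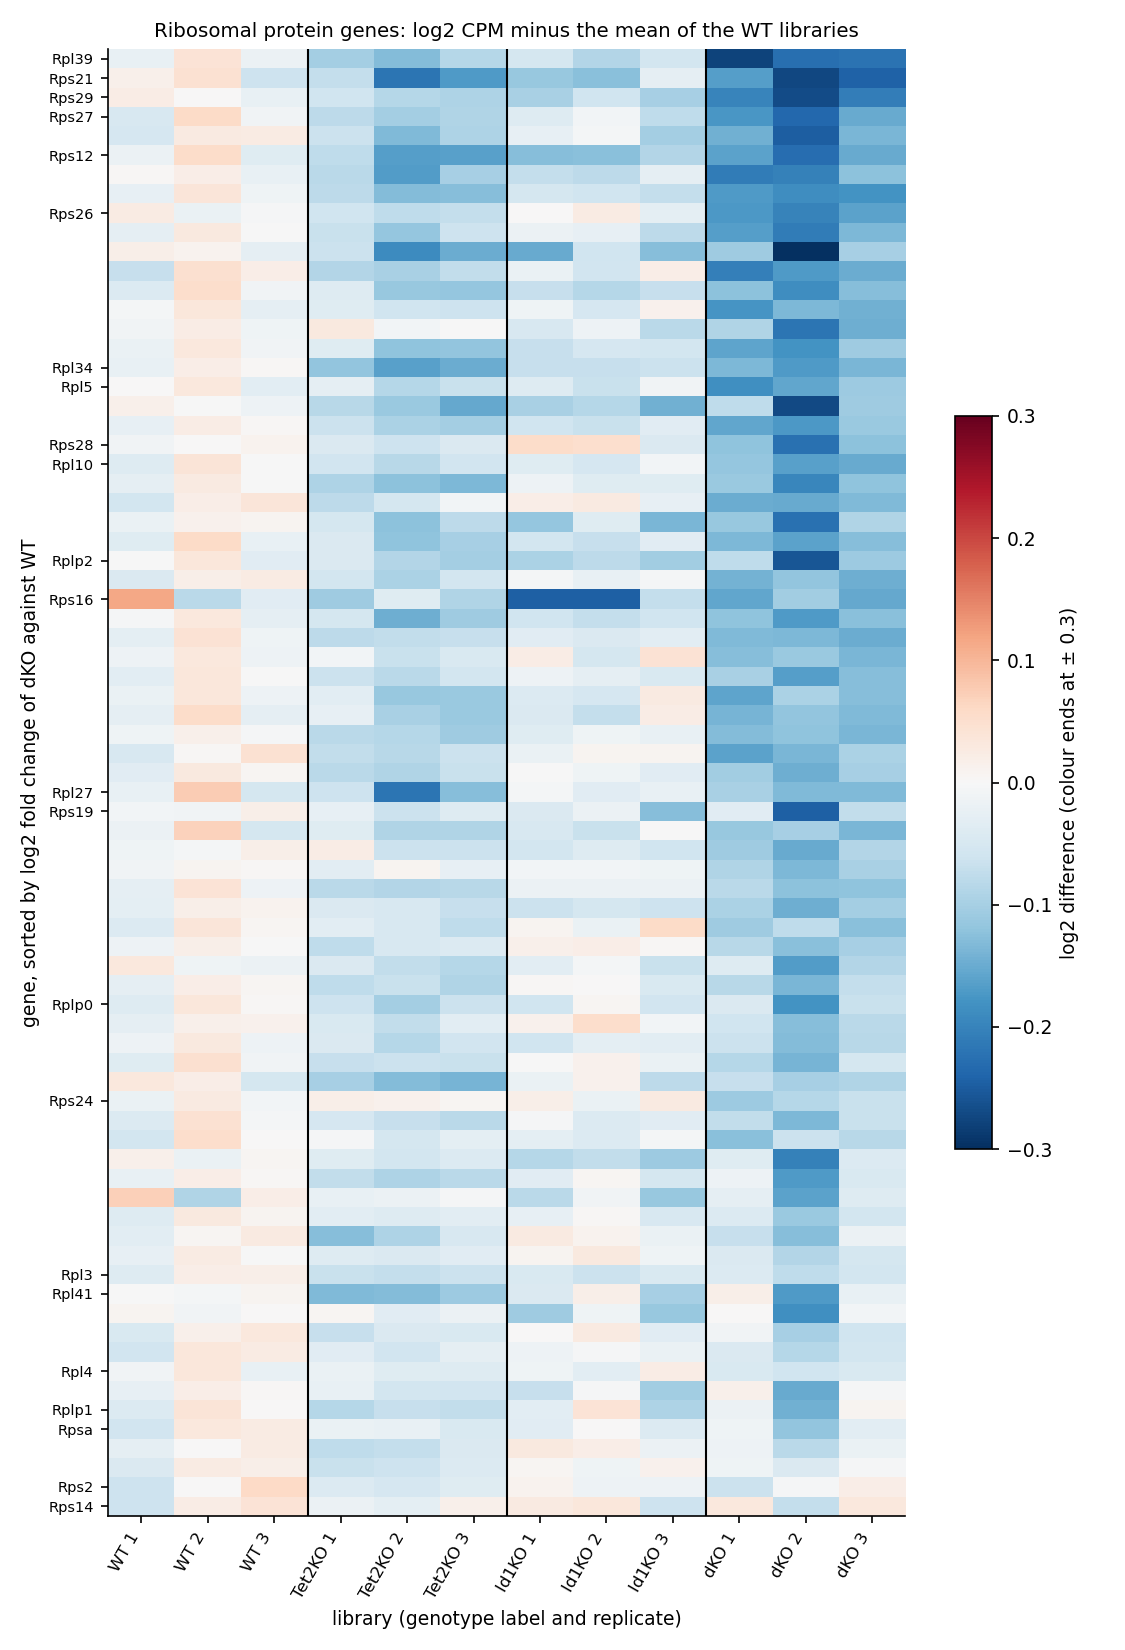
Heat map of 76 ribosomal protein genes (rows, sorted by the log2 fold change of dKO against WT) in 12 libraries (columns, 3 per genotype label), with the log2 CPM minus the mean of the WT libraries as colour. Blue is lower, Rpl6l is left out and only some rows carry a label. The dKO columns are the most blue, with library medians of -0.10, -0.15 and -0.10, while the Tet2KO medians are -0.06, -0.08 and -0.07 and the Id1KO medians -0.03, -0.02 and -0.03.

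The mean of dKO was the lowest of the 4 labels for 62 of these 76 genes, and the mean of WT was the highest for 63. Within labels the libraries were not alike. dKO replicate 2 was the lowest of all 12 libraries for 55 genes, and WT replicate 2 was the highest for 46. In dKO against WT, 44 members were called without WT replicate 2, fewer than without any of the other 11 libraries, and the median was -0.10 without dKO replicate 2.

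Against Tet2KO, the label dKO was lower for fewer genes. Of 77 tested genes 16 fell and 0 rose, where 13.4% of all genes tested fell and 13.1% rose. The median log2 fold change was -0.05, or -3.27%, with 24 members at an unadjusted p under 0.05 and 0 of those higher, and DESeq2 called 20 lower and 0 higher. Scaling by library totals left the same 16 genes called. Rps29 was at 1129, 1108 and 1103 CPM in Tet2KO and 1025, 977 and 1018 in dKO, a log2 fold change of -0.15 ± 0.0262 (SE, edgeR adjusted p = 0.000333). Rpl39 was at 549, 538 and 555 CPM against 486, 504 and 505, with -0.14 ± 0.0273 (edgeR adjusted p = 0.000978). For both genes the groups did not overlap. Rpl10, Rpl13 and Rpl22 had the smallest called differences, each at -0.08. As sums with copies, Rpl10 and Rpl13 both stood at -0.07 and were not called (edgeR adjusted p = 0.0645 and 0.0569). The call of Rpl10 was lost in 4 of 12 fits that left out 1 library, with an edgeR adjusted p up to 0.107 without Tet2KO replicate 1. When Tet2KO replicate 1 was left out 8 members were called, and 9 without Tet2KO replicate 3. In this comparison 14 of 15 erythroid markers rose, and their part was not tested.

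Against Id1KO, dKO was lower across more of the family. Here 38 of 77 tested genes fell and 0 rose, 25 of 47 in the large and 13 of 30 in the small subunit, where 8.7% of all genes tested fell and 10.6% rose. The median was -0.08, or -5.35%, with 49 members at an unadjusted p under 0.05 and 0 of those higher, and DESeq2 called 41 lower and 0 higher. With library totals the count was also 38. The erythroid sum was 1803 to 1837 CPM in Id1KO and 1625 to 1644 in dKO, with 5 markers higher and 4 lower. Their part was not tested. Rps26, which lines the channel where the mRNA leaves the 40S subunit (chr10:128624534-128626747), was at 719, 731 and 704 CPM in Id1KO and 638, 626 and 643 in dKO. Rps28, its neighbour in that channel (chr17:33819027-33824562), was at 743, 741 and 694 CPM in Id1KO and 658, 613 and 657 in dKO. Both pairs of groups were apart, and both log2 fold changes were -0.18, with SE of 0.0251 and 0.0311 and edgeR adjusted p of 3.76e-05 and 0.000377. Rpl39 also stood at -0.18 ± 0.0272 (edgeR adjusted p = 8.38e-05). Rpl9, Rpl38 and Rpl34 had the smallest called differences, at -0.09, -0.08 and -0.08.

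**Figure D3:**
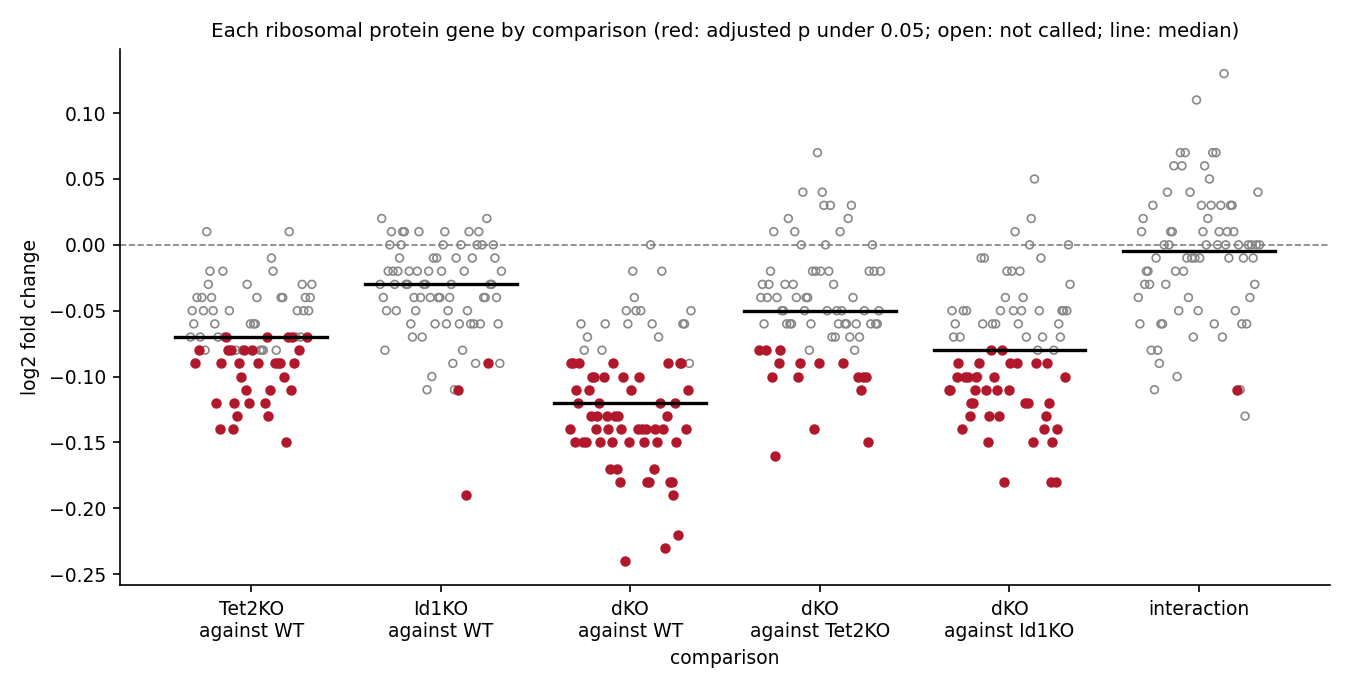
Log2 fold change of each of 76 ribosomal protein genes in 6 comparisons. Red points had an edgeR adjusted p under 0.05, open points did not, and the black line is the median. No red point lies above 0, and the medians run from -0.12 in dKO against WT to -0.01 in the interaction. With library totals as scaling the median of Id1KO against WT was 0.02 (all genes 0.04). That of Tet2KO against WT was then -0.01 (all genes 0.05).

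The interaction asks whether the change from Tet2KO to dKO differs from the change from WT to Id1KO. It was called for 1 of 77 members, Rps24, with a negative value, and for 0 with a positive value. Among all genes tested 7.03% were negative and 7.46% positive. The median was -0.01 against 0.01 for all genes, 8 members had an unadjusted p under 0.05 and none of those was positive, and DESeq2 called 3 negative and 0 positive. Rps24, a Diamond-Blackfan gene (chr14:24487125-24496959), was at 1280, 1323 and 1291 CPM in WT, 1314, 1310 and 1303 in Tet2KO, 1313, 1280 and 1323 in Id1KO and 1204, 1224 and 1240 in dKO. Only the dKO libraries stood apart, below the other 9, whose labels overlapped. The interaction was -0.11 ± 0.035 (SE, edgeR adjusted p = 0.0456). It was not called in 8 of the 12 fits that left out 1 library, with an adjusted p up to 0.0883 without Tet2KO replicate 1. With library totals 12 members had a negative and 0 a positive interaction, with a median of -0.06 against -0.04 for all genes.

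The 11 genes known from Diamond-Blackfan anemia or 5q- syndrome were read as a group. Between dKO and WT 10 of 11 fell, with a median of -0.13, and the exception was Rps14. With library totals 5 of 11 fell, with a median of -0.08 against 0.05 for all genes. Rps19, Rps24, Rps10, Rpl11 and Rpl35a were then not called either. The number that fell was 7 for dKO against Id1KO, 4 for Tet2KO against WT, 3 for dKO against Tet2KO and 0 for Id1KO against WT. With library totals the 4 of Tet2KO against WT became 0 lower and 1 higher (Rps24), and the other counts were 7, 3 and 0. The shares of genes called over the whole table are those given above for each comparison. Rps26 had the lowest value in dKO against WT, -0.18 ± 0.0251 (SE), at 731, 709 and 717 CPM in WT against 638, 626 and 643 in dKO. Rps19, the gene most often mutated in the disease, was at 1063, 1061 and 1081 CPM in WT and 1044, 901 and 1015 in dKO. Its dKO libraries lay below WT but spread widely, and the log2 fold change of -0.12 ± 0.0401 had an edgeR adjusted p of 0.0495. That call was lost in 9 of 12 fits that left out 1 library, with an adjusted p up to 0.273 without dKO replicate 2. Rpl5 and Rpl11 form with 5S rRNA the particle that binds Mdm2 when ribosome assembly fails. They stood at -0.15 ± 0.0279 and -0.09 ± 0.0258 in dKO against WT, but 57.5% of the counts of the Rpl5 family lie in copies and the sum with copies was not called (-0.05, edgeR adjusted p = 0.196). Rpl11 was not called without WT replicate 2 (edgeR adjusted p = 0.0849) or dKO replicate 2. Fold changes of others in that comparison were -0.15 for Rps10, -0.14 for Rps7, -0.13 for Rpl26, -0.13 for Rpl35a and -0.09 for Rps24.

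Of the 3 stalk genes, 2 fell in dKO against WT, and 0 with library totals (Rplp0 -0.04, Rplp1 0.00 and Rplp2 -0.09). Rplp0, the base of the stalk, was at 2622 ± 68.1 CPM (SD, n = 3) in WT and 2454 ± 123 in dKO, with a log2 fold change of -0.10 ± 0.0327 (SE, edgeR adjusted p = 0.0457). Its call was lost in 9 of 12 fits that left out 1 library, with an adjusted p up to 0.227 without dKO replicate 2. Rplp2 was at 842 ± 19.5 and 762 ± 49.8 CPM, with -0.14 ± 0.0356 and an adjusted p of 0.00658. Rplp1, the most abundant per exonic length, was at 1389 ± 38.8 and 1343 ± 74.2 CPM and was not called (-0.05 ± 0.0367). For Rplp0 and Rplp2, dKO replicate 2 was the lowest library, at 2314 and 705 CPM. Of the most abundant genes per length, Rpl23a fell by 0.10 on the log2 scale in dKO against WT and Rps15 was not called (-0.06 ± 0.0383).

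Among members, the genes with the shortest coding sequences tended to differ most. Across 76 genes, the Pearson correlation of coding length with the log2 fold change of dKO against WT was 0.55 and the Spearman correlation 0.52. In Tet2KO against WT they were 0.42 and 0.50, and in Id1KO against WT 0.21 and 0.22. With exonic length in place of coding length they were lower. They were 0.11 and 0.09 in dKO against WT, 0.19 and 0.13 in Tet2KO against WT and 0.15 and 0.05 in Id1KO against WT. These describe genes of the same libraries, which are not independent replicates, and the sign means lower values at shorter lengths. Of the 25 shortest genes (138 to 405 nucleotides) 23 were called in dKO against WT, with a median of -0.14. Of the 25 of middle length (405 to 564) 20 were called, with -0.13, and of the 26 longest (576 to 1257) 14, with -0.09. Rpl41 was an exception: the shortest of all was not called in dKO against WT (-0.06 ± 0.0374, SE), with 1051, 1048 and 1059 CPM in WT and 1066, 935 and 1036 in dKO. Mean level also went with the log2 fold change of dKO against WT, with a Pearson correlation of 0.48. Other short genes were lower as well: 972 tested protein-coding genes with a median transcript length of at most 1000 bases had medians of -0.05 in dKO against WT and -0.07 in Tet2KO against WT. Among them 125 fell and 28 rose in dKO against WT, where 8.97% of all genes tested fell and 10.2% rose. In Tet2KO against WT 235 of them fell and 63 rose, where 16.2% of all genes tested fell and 16.6% rose. In dKO against Tet2KO the short genes had a median of 0.02, against -0.05 for the ribosomal protein genes. The part of transcript length in these results was not tested.

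**Figure D4:**
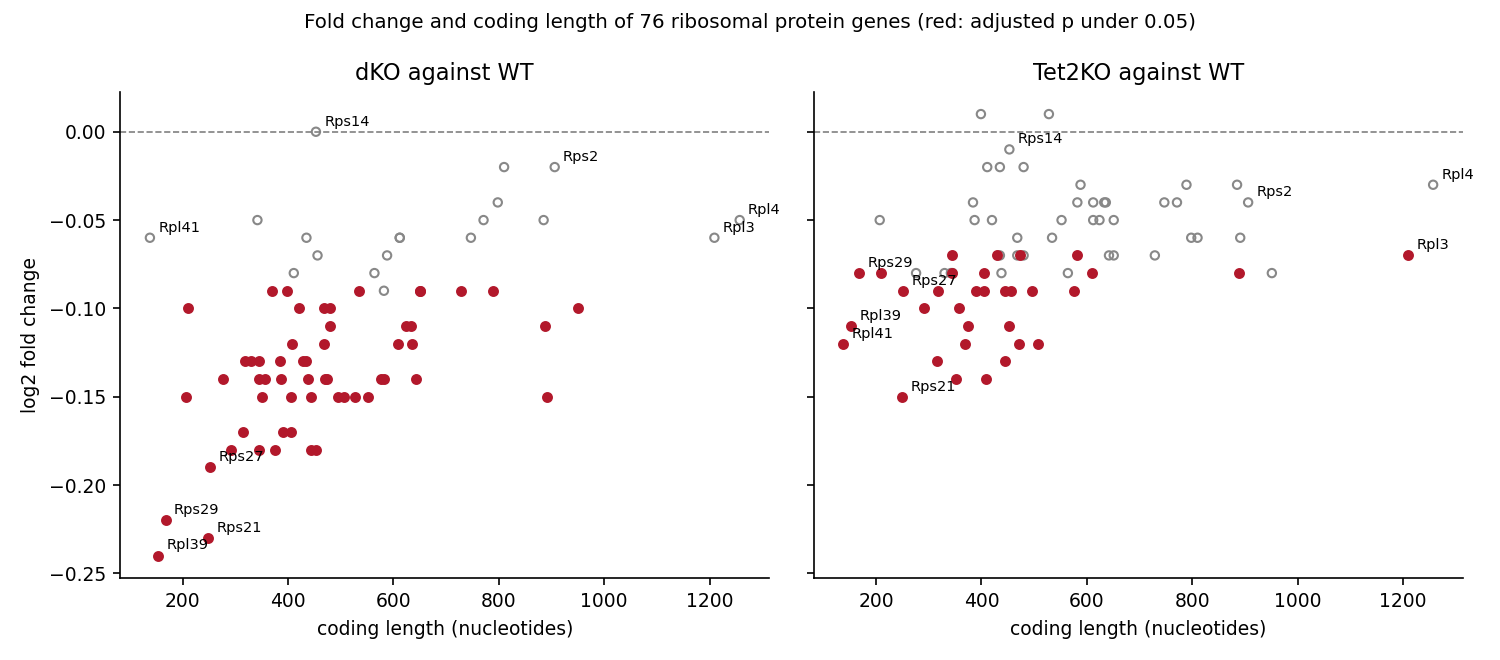
Coding length in nucleotides (x axis) against log2 fold change (y axis) of 76 ribosomal protein genes in dKO against WT (left) and Tet2KO against WT (right). Red points had an edgeR adjusted p under 0.05. In the left panel the short genes Rpl39, Rps21 and Rps29 lie lowest at -0.24, -0.23 and -0.22, the long genes Rpl4 and Rpl3 lie at -0.05 and -0.06, and short Rpl41 lies with them at -0.06.

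Ribosomal protein genes have many processed copies in the genome, which compete with them for reads. A search at 95% identity over at least 100 bases, with copies named by symbol added, found 760 copies of 76 members. Of these 491 had counts. In all they took 0.249 to 0.275% of counts per library, and only 4 members had more than 10% of their family's counts in copies. Rpl5 was the extreme case, with 57.5% in copies. Its copy Gm15500, identical over 1007 aligned bases, had a mean of 16891 counts per library and Rpl5 itself 12479. Gm15500 was at 946 CPM in WT and 957 in dKO (log2 fold change 0.02), and the sum of Rpl5 and its copies had one of -0.05 between dKO and WT (edgeR adjusted p = 0.196). The call of Rpl5 is therefore uncertain. The other 3 were Rpl35 (39.3%, with Gm2000 as the largest copy), Rpl27 (23.7%) and Rpl41 (15.4%). With copies added, Rpl35 was at -0.10 (edgeR adjusted p = 0.00947) and Rpl27 at -0.12 (0.0109) in dKO against WT, so both stayed called. Over the family, sums with copies gave 55 calls in dKO against WT and 35 in Tet2KO against WT. In dKO against Tet2KO they gave 13 calls in place of 16.

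Other genes of ribosome production were counted in the same comparisons. Of 49 genes for ribosome assembly in the nucleolus, 37 fell and 2 rose in Tet2KO against WT, with a median of -0.16. Among all genes tested 16.2% fell and 16.6% rose. In dKO against Tet2KO, where 13.1% of all genes tested rose and 13.4% fell, 36 of the 49 rose and 0 fell, with a median of 0.16. At an unadjusted edgeR p under 0.05, 41 were higher and 0 lower, and DESeq2 called 33 higher and 0 lower. In dKO against WT 4 rose and 5 fell, with a median of 0.00, near the shares of all genes tested (10.2% and 8.97%). In Id1KO against WT 6 rose and 1 fell, with 0.03, where 7.26% of all genes tested rose and 7.77% fell. The ribosomal protein genes had medians of -0.07, -0.05, -0.12 and -0.03 in the same 4 comparisons. The first and second of these share the Tet2KO libraries, and the values are given side by side. With library totals 25 assembly genes fell and 2 rose in Tet2KO against WT, and 36 rose and 0 fell in dKO against Tet2KO. On that scale 10 rose and 0 fell in dKO against WT, and in Id1KO against WT 17 rose and 0 fell. When 1 library was left out, 32 to 39 assembly genes were called in Tet2KO against WT, 33 to 38 in dKO against Tet2KO, 6 to 10 in dKO against WT and 3 to 10 in Id1KO against WT.

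Nop56, a core protein of the box C/D snoRNPs that methylate ribosomal RNA, had a log2 fold change of -0.28 in Tet2KO against WT and then 0.16 for dKO against Tet2KO. Rrp9, a U3 snoRNP protein, had the largest values of the list, -0.39 and 0.33. Nmd3, which exports the 60S subunit with Rpl10, had -0.28 and 0.24. Ncl (nucleolin) and Ddx21, a nucleolar helicase, are the most abundant of the list, at means of 1171 and 411 CPM. Both fell in Tet2KO against WT, by 0.12 and 0.22, and Ddx21 rose by 0.23 in dKO against Tet2KO, where Ncl stood at 0.08 and was not called. The call of Ncl was lost without WT replicate 1, Tet2KO replicate 1 or Tet2KO replicate 3, with an edgeR adjusted p up to 0.156. The 2 genes that rose in Tet2KO were Sbds, which frees the 60S subunit of Eif6 (0.18), and Mdn1 (0.07). The interaction was called for 18 of the 49, 17 of them positive, where 7.46% of all genes tested were positive and 7.03% negative. With library totals it was called for 7, 6 of them positive, and without 1 library for 9 to 20. Of 14 genes for RNA polymerase I and its factors, which transcribe ribosomal RNA, 6 fell and 1 rose in Tet2KO against WT. The most abundant of them were Taf1d at -0.01, Ubtf at -0.14 and Polr1a at -0.14, of which the last 2 fell. In dKO against Tet2KO 5 rose and 2 fell. Of all genes tested 16.2% fell and 16.6% rose in Tet2KO against WT. In dKO against Tet2KO 13.4% of them fell and 13.1% rose.

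**Figure D5:**
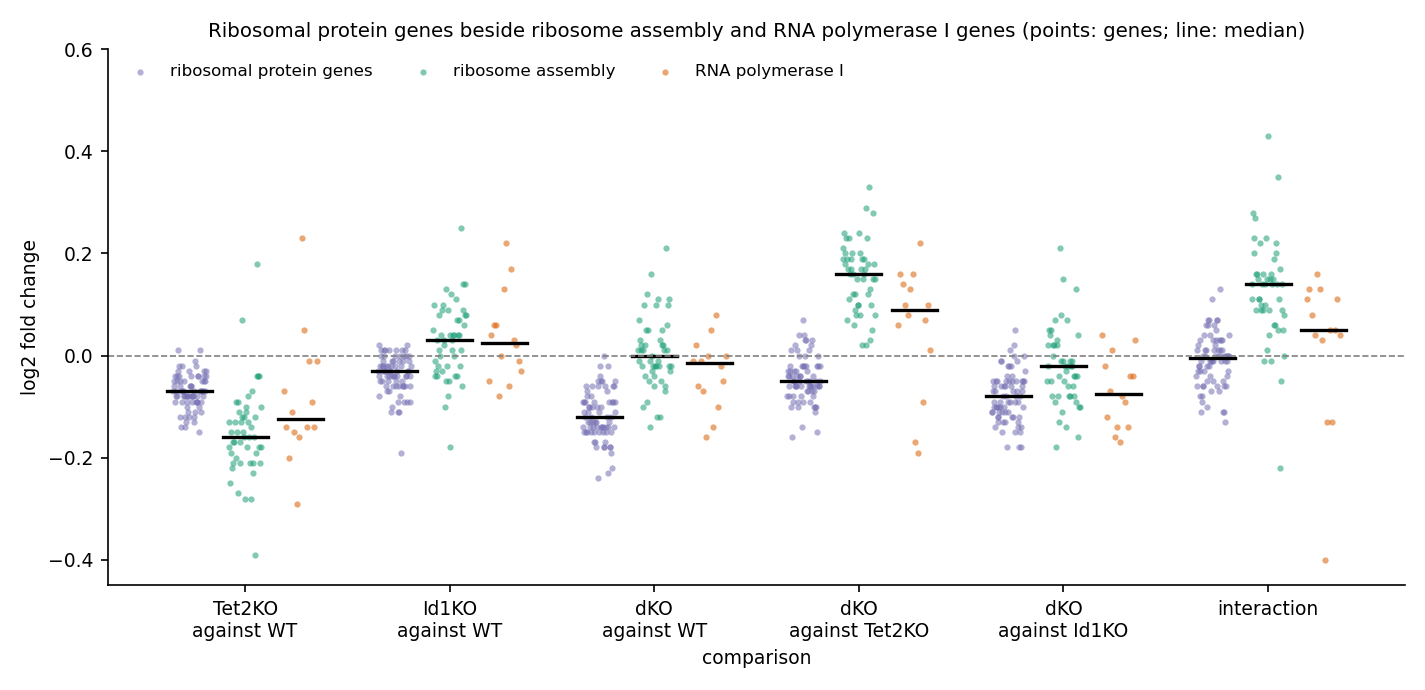
Log2 fold change of 76 ribosomal protein genes, 49 ribosome assembly genes and 14 RNA polymerase I genes in 6 comparisons. Points are genes and black lines are medians. Assembly genes lie below 0 in Tet2KO against WT (median -0.16) and above 0 in dKO against Tet2KO (median 0.16). The medians of the ribosomal protein genes are -0.07 and -0.05. With library totals the last 2 medians were -0.01 and -0.05, where those of all genes were 0.05 and 0.00.

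Genes whose mRNAs also carry TOP tracts, 20 translation factors and related genes, were counted as well. In dKO against WT 2 rose and 2 fell, with a median of -0.03, near the shares of all genes tested (10.2% and 8.97%). In Tet2KO against WT 1 rose and 8 fell, with -0.05, where 16.6% of all genes tested rose and 16.2% fell. With library totals 3 rose and 1 fell in dKO against WT, with a median of 0.02 against 0.05 for all genes. On that scale 2 rose and 3 fell in Tet2KO against WT. Eef1a1, the elongation factor that delivers aminoacyl-tRNA and the most abundant gene of this list at 12301 CPM, had log2 fold changes of -0.01 for Tet2KO and -0.07 for dKO, both against WT, and was called among the pairwise comparisons only in dKO against Id1KO (-0.09), and not there without dKO replicate 3 (edgeR adjusted p = 0.0519). Eef2, which moves the ribosome along, was not called in any pairwise comparison (-0.03 for Tet2KO and -0.04 for dKO, both against WT). Npm1, a nucleolar chaperone, had called values of -0.15 for Tet2KO against WT and 0.22 for dKO against Tet2KO. Pabpc1, the cytoplasmic poly(A)-binding protein, rose by 0.29 in Tet2KO and 0.39 in dKO against WT.

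Ribosomal protein genes under other symbols and paralogs outside the rule numbered 9 with data. For dKO against WT 4 fell and 0 rose, among them Rpl36al (-0.10), Rpl22l1 (-0.23) and Rps27rt (-0.31), a scarce retrotransposed copy of Rps27 whose counts are uncertain. None was higher at an unadjusted edgeR p under 0.05, and 2 fell with library totals. Over all genes tested 8.97% fell and 10.2% rose in this comparison with TMM scaling. Rack1, a scaffold on the 40S head, was at -0.06 and Fau at 0.02, neither called. Among 11 regulators of ribosome production and TOP mRNAs, 5 rose and 0 fell in dKO against WT, beside the same shares over all genes. At an unadjusted edgeR p under 0.05, 6 of them were higher and 0 lower. Mtor stood at 0.13 and Larp1 at 0.10, both called, as were Larp4 at 0.11 (not called without WT replicate 2, edgeR adjusted p = 0.0613), Mycn at 0.47 and Eif4ebp2 at 0.32. Myc was not called in this comparison (0.04), fell by 0.10 in Tet2KO against WT and rose by 0.14 in dKO against Tet2KO. Its call in Tet2KO against WT was lost in 4 of 12 fits that left out 1 library, with an edgeR adjusted p up to 0.144 without WT replicate 1.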

How the data were processed

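RNA of sorted donor LK cells was sequenced in 12 libraries. Estimated counts per gene, deposited by the authors for 55450 genes without normalization, were read from 1 table in which 5.06% of values are not whole. STAR, RSEM and mm10 are named in the submitters' processing notes; versions, settings, annotation and strand are not given in the sources used here. Counts were rounded. All identifiers matched GENCODE M21 (GRCm38), the source of positions and lengths. Libraries were grouped by genotype label. Genes were kept by filterByExpr (minimum count 10), scaled by TMM and fitted with 1 mean per genotype by edgeR 4.0.16 (quasi-likelihood, two-sided F-tests, Benjamini-Hochberg over 14346 genes, threshold 0.05, R 4.3.3). CPM of the text use the TMM-scaled totals, and SD is over 3 libraries. Depth was at least 15706407 counts, and at least 5366 counts lie behind each level of a tested member other than Rpl6l. Copies were sought with blast 2.17.0 in transcripts. Alternatives were RLE and upper-quartile scaling, TMM without 3919 mitochondrial and small structural RNA genes, no filter, DESeq2 1.42.0, fits of the 2 genotypes compared alone, leave-one-out fits, a block for replicate number, sums with copies, a threshold of 0.01 and libraries summed per genotype. Scaling by library totals and TMM without the family and its copies were added after the data were seen. Genes named are the targeted genes, the 3 highest and 3 lowest members called per comparison, the 5 most abundant members per exonic length, untested members, paralogs with their partners, stalk genes, Diamond-Blackfan and 5q- genes, and from each list the 3 most abundant with examples among those called. Rps2, Rpl4, Rpl7a, Rpsa, Rpl41, Rps27 and Rps13 were added after their values were seen. The members and lists were chosen with earlier results of these data known. The fits were tested on simulated data. Protein sequences are not used here. A few genes that the rule names are not reported here.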

Additional observations from a re-analysis of the deposited data

Results flagged for a closer look

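The change from Tet2KO to dKO differed from the change from WT to Id1KO for the genes below, by the edgeR interaction term at an adjusted p under 0.05 over all genes tested. Rps24 was the only ribosomal protein gene among them, with an interaction of -0.11 on the log2 scale. Id1 itself had -1.40, with 1.47 ± 0.268 CPM (SD, n = 3) in WT and 3.86 ± 0.421, 3.96 ± 0.342 and 3.93 ± 0.501 in Tet2KO, Id1KO and dKO. Among ribosome assembly genes the interaction was 0.43 for Nmd3, 0.35 for Rrp9, 0.27 for Ddx21 and 0.19 for Nop56. The nucleolar chaperone gene Npm1 had 0.19. Of the genes for RNA polymerase I, Polr1a had 0.13 and Taf1d -0.13. Leaving out 1 library ended the call of Polr1a in 10 of 12 fits, of Rps24 in 8 and of Taf1d in 5.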

How the results depend on the processing

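Scaling decided most in comparisons with WT. With library totals (chosen after seeing the data) the members called were 3 in Tet2KO against WT, 1 in Id1KO against WT, 30 in dKO against WT and 12 in the interaction. Their medians were -0.01, 0.02 (reversed), -0.06 and -0.06. The medians of all genes also moved on that scale, to 0.05, 0.04, 0.05 and -0.04 in the same order. Those values stand beside the lists that follow as well. On that scale other medians also changed sign: ribosomal protein genes under other symbols to 0.01 in Id1KO against WT and -0.04 in the interaction, translation factors to 0.04 in Id1KO against WT, 0.02 in dKO against WT and -0.02 in the interaction, RNA polymerase I genes to 0.03 in dKO against WT and regulators to 0.01 in Tet2KO against WT. Regulators in dKO against Id1KO also reversed, to 0.02 without Id1KO replicate 1, 0.03 without Id1KO replicate 2 and 0.01 without dKO replicate 3. Rpl5 in dKO against Tet2KO was at 0.00 as a sum with copies. A threshold of 0.01 gave 11 calls in Tet2KO against WT, 1 in Id1KO against WT, 7 in dKO against Tet2KO and 0 in the interaction. Id1KO against WT had 11 calls with no filter and 6 with only the libraries compared. The interaction had 2 calls with RLE scaling, 2 with upper-quartile scaling and 3 with DESeq2. Libraries summed per genotype, which leaves 4 samples, gave 0 calls in each of the 5 pairwise comparisons, and this additive fit has no interaction. Leaving out 1 library gave 9 to 40 calls in Tet2KO against WT (median -0.08 to -0.05), 0 to 8 in Id1KO against WT (-0.04 to -0.01), 44 to 57 in dKO against WT (-0.13 to -0.10), 8 to 20 in dKO against Tet2KO (-0.06 to -0.03), 31 to 41 in dKO against Id1KO (-0.09 to -0.07) and 0 to 3 in the interaction (-0.03 to 0.00). With a replicate block, the calls were 27, 2, 54, 13 and 32 in the pairwise comparisons in the order of the report and 0 in the interaction. The replicate numbers share no stated source: correlations of deviations ran from -0.294 to 0.316 for the same number and -0.333 to 0.468 for other numbers, and 6 of 12 libraries were closest to their own number. Of 94 calls of single named genes, 85 were lost with libraries summed per genotype, 32 at 0.01, 26 with library totals, 11 with the block and 33 without some 1 library, and 1 of 2242 values reversed. Except where the change is the alternative's own construction, the cause was not tested.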
